A study of Mus musculus with 4 samples.

Results

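The collagen genes of the mouse were followed in whole uteri of late pregnancy. Members were chosen by name alone, as every protein-coding gene whose GRCm38 symbol has the form Col, number, a, number, which gave 44 of the 55421 genes counted. Of these, 11 encode chains of fibrillar collagens, 8 chains of basement membrane collagens (types IV, XV and XVIII), and 25 chains of other collagens. Collagens are proteins of the extracellular matrix in which 3 chains wind into a triple helix. Fibrillar collagens are trimmed outside the cell and pack into crosslinked fibres that bear load, type IV collagen forms the sheet-like network under epithelia, around vessels and around each smooth muscle cell, and type VI collagen forms beaded filaments between fibres and cells. In the uterus the matrix of the muscle layer and stroma is built up as the organ grows in pregnancy and is taken down after birth.

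RNA was taken from 2 pregnant C57BL/6J females, which carry the genes for the non-classical MHC class I molecule Qa-2 (WT), and from 2 pregnant females of the strain B6.Cg-H2b3/FlaCmwJ (B6.K1), which lack them (Qa-2-). All females were mated within their own strain and were studied at gestational age E18.5, with 1 library per mouse. The Qa-2- mice are an inbred congenic strain that arose in crosses of other congenic strains, and not a targeted deletion, so that strain background and the loss of Qa-2 cannot be told apart. The region of the uterus from which each piece of tissue was cut is not given in the sources used here. The question is whether collagen RNA differs between WT and Qa-2- uteri.

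The libraries held between 33286390 and 41041299 counted read pairs, and both WT libraries were the deeper ones. At this depth, 3 read pairs corresponded to between 0.0731 and 0.0901 CPM (read pairs scaled to a common library total), before any scaling by TMM. H2-Q7, a gene for Qa-2, had 6318 and 1251 read pairs in the WT libraries and 4 and 2 in the Qa-2- libraries, as the labels require. All 7 uterus markers (among them Esr1, Pgr and Hoxa10) were detected in all 4 libraries, with a summed level between 929 and 1125 CPM. The libraries differed in markers of other tissues. The summed level of 7 trophoblast markers was 0.624 CPM in WT 1, 35.1 CPM in WT 2, 3.84 CPM in Qa-2- 1 and 0.229 CPM in Qa-2- 2, with Gcm1 at 0 in all of them. The 7 smooth muscle markers summed to 26802, 44573, 23757 and 12748 CPM in the same order. From here on and for the markers above, CPM is scaled by TMM, a normalization that lines up the bulk of the genes between libraries, and values for 4 libraries are given in the order WT 1, WT 2, Qa-2- 1, Qa-2- 2. In tissue RNA, fewer cells of a type and less RNA per cell cannot be told apart.

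Start regions were available from RefSeq (GRCm38.p6) for 35 of the 44 collagen genes, in 38 windows of 250 bases before the start. The sequences below belong to the members whose levels lay furthest apart between the groups relative to their spread, and to the pair Col4a4 and Col4a3, whose starts lie back to back on chromosome 1. For the first 3, the 100 bases before the gene's start are shown on the gene's strand, and for the pair the whole interval of 71 bases between both genes on the plus strand. Capitals mark the GC box GGGCGG, the motif that Sp-family factors bind, or its reverse complement CCGCCC.
Col6a6, chr9:105828161-105828260, minus strand: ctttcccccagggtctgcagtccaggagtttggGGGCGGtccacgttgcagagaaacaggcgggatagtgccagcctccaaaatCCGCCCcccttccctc
Col8a1, chr16:57754738-57754837, minus strand: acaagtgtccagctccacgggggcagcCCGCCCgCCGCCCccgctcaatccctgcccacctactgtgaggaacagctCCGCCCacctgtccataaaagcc
Col23a1, chr11:51289820-51289919, plus strand: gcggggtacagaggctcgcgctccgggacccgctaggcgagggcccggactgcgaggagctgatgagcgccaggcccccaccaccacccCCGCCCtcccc
Col4a4-Col4a3, chr1:82586850-82586920, plus strand: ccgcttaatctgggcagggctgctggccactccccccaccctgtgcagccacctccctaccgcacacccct
None of these stretches overlaps an annotated exon. Searched on both strands, GGGCGG was present in 22 of the 38 collagen windows (57.9%) and in 32.7% of all 32851 windows of the same length. The CCAAT box CCAAT was present in 34.2% and 33.8%, and the TATA box TATAAA in 13.2% and 12.4%. Overlaps between motifs were not removed. These are matches of letters, and no binding was measured.

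Collagen RNA took 2.51% of all counted read pairs in WT 1, 5.28% in WT 2, 6.14% in Qa-2- 1 and 3.41% in Qa-2- 2. The highest share was thus 2.45 times the lowest, and each group held a low and a high uterus. The means were 3.90% ± 1.96 in WT and 4.77% ± 1.93 in Qa-2- uteri (SD, n = 2 each), a difference smaller than the spread within either group (exact permutation test, two-sided, p = 0.67). With 2 mice against 2 the smallest p that this test can give is 0.33. The 95% Wilson intervals of these shares reached at most 0.00796 percentage points to either side and cover counting error only. The ratio of the group means, 0.816, turned to 1.11 without WT 1 and to 1.14 without Qa-2- 1, and fell to 0.526 without WT 2.

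**Figure D1:**
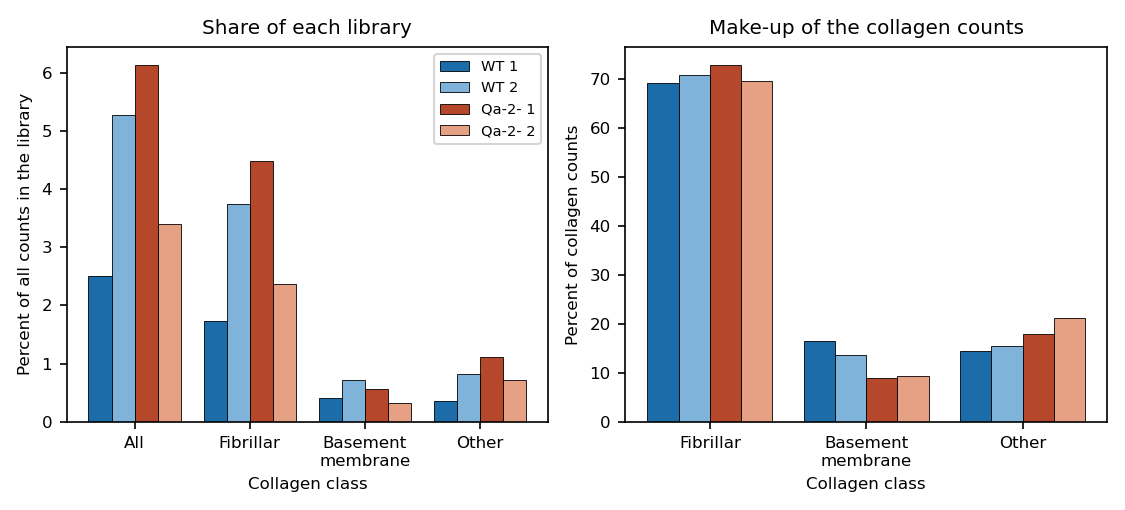
Bars show, for each of the 4 libraries, the collagen counts as percent of all counts (left) and the classes as percent of the collagen counts (right). WT 2 and Qa-2- 1 stand above WT 1 and Qa-2- 2 in the total, while the basement membrane class makes up 16.5% and 13.7% of collagen counts in WT and 9.01% and 9.30% in Qa-2- uteri.

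The classes shared the collagen counts unequally, and the shares of the 2 smaller classes were ordered by group. Basement membrane collagens made up 16.5% and 13.7% of collagen counts in the WT uteri and 9.01% and 9.30% in the Qa-2- uteri. Both WT libraries lay above both Qa-2- libraries, and the means of 15.1% ± 1.99 and 9.16% ± 0.203 differed by a ratio of 1.65 (SD, n = 2 each; exact permutation test, two-sided, p = 0.33, the smallest possible). The other collagens made up 14.4% and 15.4% in WT and 18.0% and 21.2% in Qa-2- uteri, with both Qa-2- libraries on top. Fibrillar collagens made up between 69.1% and 72.9%, and their shares overlapped between the groups. As percent of the whole library, basement membrane collagens took 0.414%, 0.723%, 0.554% and 0.317%, which did overlap. The ratio of 1.65 for the basement membrane class ranged from 1.49 to 1.80 when each library was left out in turn, and was 1.84 for type IV collagen alone. The summed endothelium markers were 1077 and 949.8 CPM in WT and 484 and 456 CPM in Qa-2- uteri. Of these, 6 of 6 were higher in both WT libraries, an order that 25.4% of all genes had. Of 7 smooth muscle markers, 5 had this order and 0 the opposite one. The summed epithelium markers were 2089, 1237, 2953 and 2798 CPM. The part of these cell types, and of smooth muscle, in the class shares was not tested.

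Most collagen genes differed in the same direction between the mice of a group. Of the 44 genes, 36 passed the filter of at least 1 CPM, unscaled, in at least 2 libraries. WT 2 was above WT 1 for 31 of the 36 (86.1%, against 49.9% of all 14492 genes tested), with a median ratio of 1.74 against 0.999 for all genes. Qa-2- 1 was above Qa-2- 2 for 29 of them (80.6%, against 50.6%), with a median ratio of 1.67 against 1 for all genes. Both held for 24 collagen genes (66.7%) and for 33.0% of all genes. The 7 smooth muscle markers also showed both orders, 7 of 7, and so did 3 of 6 fibroblast markers. WT 2 and Qa-2- 1 were also the libraries with the most trophoblast marker counts. What part these differences in tissue had in the collagen level was not tested.

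**Figure D2:**
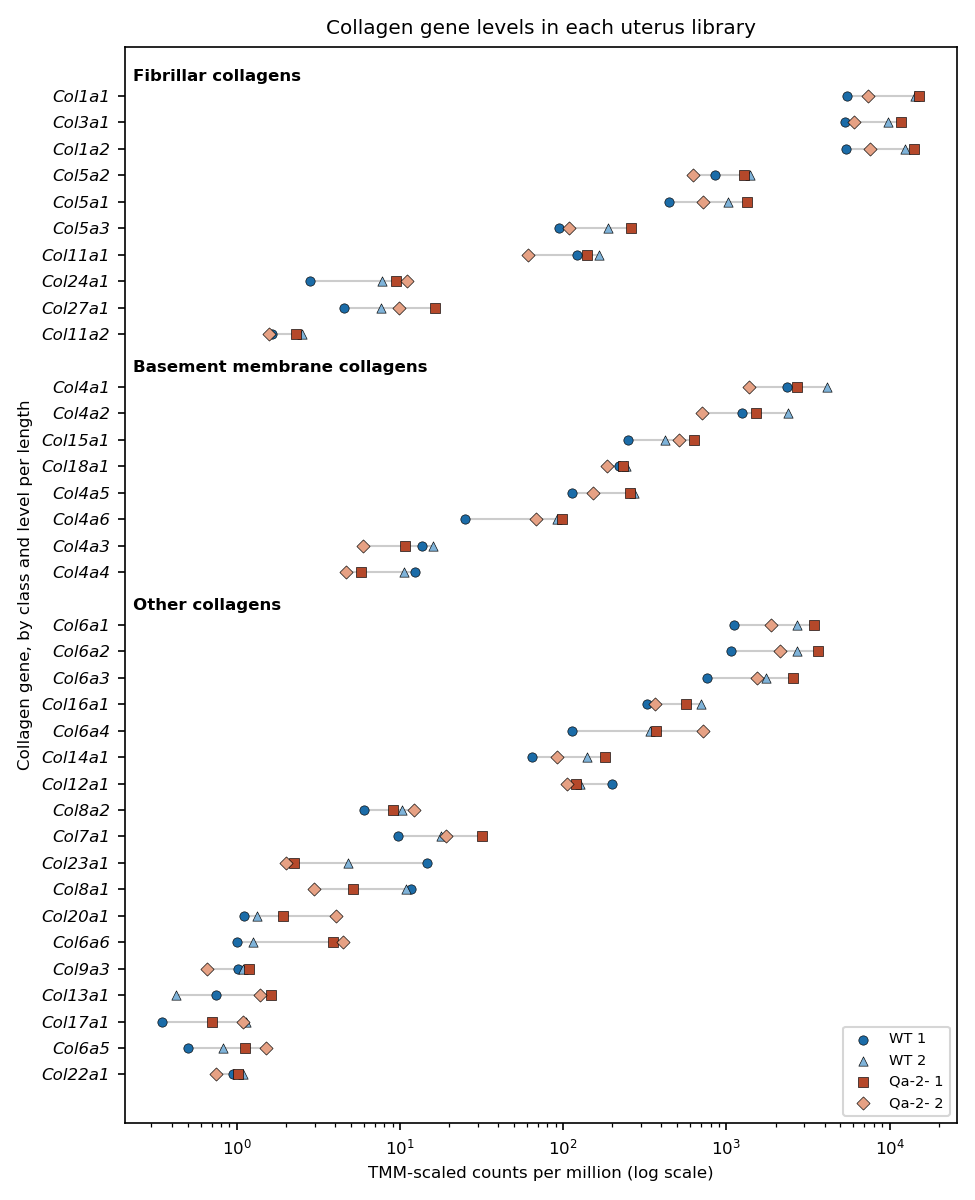
Each row is 1 of the 36 collagen genes that passed the filter, each point 1 library, and the axis shows CPM on a log scale. For most fibrillar genes WT 1 and Qa-2- 2 lie left and WT 2 and Qa-2- 1 right, whereas Col23a1, Col8a1, Col4a4 and Col6a6 separate the groups.

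The fibrillar collagens were led by types I and III. Col1a1 and Col1a2 encode the chains of type I collagen, the main load-bearing fibre, and Col3a1 that of type III collagen, which forms finer fibrils in organs that stretch. Col1a1 stood at 5484, 14347, 15176 and 7414 CPM, and by count it was among the 10 most abundant genes of every library. The levels overlapped, with WT 1 lowest and Qa-2- 1 highest. Its log2 fold change, WT over Qa-2-, was -0.19 ± 0.75 (SE; edgeR quasi-likelihood test, adjusted p = 0.919). Col1a2 (5426, 12344, 14165 and 7563 CPM) and Col3a1 (5334, 9753, 11780.0 and 6062 CPM) ran in the same order of libraries, with log2 fold changes of -0.29 and -0.24. All 3 turned positive without WT 1 (0.32, 0.16 and 0.10) and without Qa-2- 1 (0.42, 0.23 and 0.31). Per kilobase of exon, Col1a1 was the most abundant collagen RNA (1616 CPM per kb, mean of 4 libraries), followed by Col3a1 (839) and Col1a2 (795).

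Type V collagen lies inside type I fibrils and limits their width. Col5a2, for 1 of its chains, stood at 856, 1396, 1291 and 620.5 CPM, which overlapped (log2 fold change 0.24, turning to -0.16 without WT 2 and to -0.20 without Qa-2- 2). Col5a1, for the chain that pairs with it, stood at 442, 1027, 1338 and 720.0 CPM, and Col5a3 at 94.1, 189, 260.4 and 109 CPM. Within each library, the level of Col5a2 per length was 1.73 and 1.21 times that of Col5a1 in WT and 0.861 and 0.769 times in Qa-2- uteri. This ratio did not overlap between the groups. Col11a1, for a chain of type XI collagen, which starts fibrils in cartilage, stood at 121, 166, 139.6 and 60.8 CPM, again with overlap. Col11a2, for its partner chain, stood between 1.58 and 2.52 CPM, and is the only collagen gene on chromosome 17, 1.36 Mb from the H2-Q genes that the Qa-2- strain lacks.

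Col27a1 and Col24a1, for the minor fibrillar types XXVII and XXIV, were the fibrillar genes with the lowest log2 fold changes. Col27a1 stood at 4.52 and 7.60 CPM in WT and at 16.4 and 9.86 CPM in Qa-2- uteri, so that both Qa-2- libraries were above both WT libraries. Its log2 fold change was -1.12 ± 0.39 (edgeR, unadjusted p = 0.0334, adjusted p = 0.305), and was -0.71 without Qa-2- 1 and -1.54 without WT 2. Col24a1 stood at 2.82 and 7.76 CPM against 9.49 and 11.1 CPM, in the same order of groups. Col2a1, for the main collagen of cartilage, had 0 to 4 read pairs per library and did not pass the filter.

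In the basement membrane class, the 6 type IV genes lie in 3 head-to-head pairs, and the pairs differed in how they ran across the libraries. Col4a1 and Col4a2 encode the chains of the type IV network found in nearly all basement membranes, and their gene bodies overlap by 22 bases on chromosome 8. Col4a1 stood at 2358, 4131, 2704 and 1375 CPM and Col4a2 at 1250.1, 2389.6, 1520.1 and 711 CPM. WT 2 was highest and Qa-2- 2 lowest for both, and the groups overlapped. Their log2 fold changes were 0.67 ± 0.52 and 0.71 ± 0.53 (edgeR, adjusted p = 0.568 and 0.556), and fell to 0.21 and 0.16 without WT 2 and to 0.26 and 0.25 without Qa-2- 2. The ratio of Col4a2 to Col4a1 per length stayed between 0.583 and 0.652, a range of 1.12-fold, while the level of each gene varied by more than the ratio.

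Col4a3 and Col4a4 encode chains of the type IV network of the glomerulus and a few other epithelia. Col4a4 stood at 12.4 and 10.6 CPM in WT and at 5.76 and 4.70 CPM in Qa-2- uteri, without overlap. Its log2 fold change of 1.13 ± 0.25 had an unadjusted p of 0.00539 and an adjusted p of 0.246 (edgeR), and ranged from 0.99 to 1.28 when each library was left out. Col4a3, on the other side of the 71-base interval printed above, stood at 13.7 and 15.9 CPM against 10.8 and 5.93 CPM (log2 fold change 0.83 ± 0.33, edgeR, adjusted p = 0.338). Both members of this pair were thus higher in both WT libraries, an order that 25.4% of all genes had. Without Qa-2- 2 the value of Col4a3 was 0.46, and without Qa-2- 1 it was 1.32.

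Col4a5 and Col4a6, on the X chromosome with 1308 bases between them, encode the chains of the type IV network around smooth muscle. Col4a5 stood at 113, 269.9, 256 and 153 CPM and Col4a6 at 25.0, 91.3, 98.4 and 68.2 CPM, with WT 1 lowest in both. Both overlapped between the groups. Relative to Col4a1 in the same library, Col4a5 was at 0.0533 and 0.0726 in WT and at 0.105 and 0.124 in Qa-2- uteri (per length), 1.82-fold higher in Qa-2- by the means. Col4a6 relative to Col4a5 was at 0.186 and 0.285 against 0.324 and 0.375.

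Col15a1 and Col18a1 encode the type XV and XVIII collagens, which link basement membranes to the tissue beneath and carry the endostatin-type domain. Col15a1 stood at 249.9 and 421 CPM in WT and at 633 and 516 CPM in Qa-2- uteri. Both Qa-2- libraries were above both WT libraries (log2 fold change -0.78 ± 0.33, edgeR, unadjusted p = 0.0616, adjusted p = 0.348), and the value was -1.20 without WT 2 and -0.47 without WT 1. Col18a1 varied little, at 219, 241, 231 and 186 CPM, with overlap. Col15a1 relative to Col18a1 was 1.26 and 1.93 in WT and 3.02 and 3.08 in Qa-2- uteri per length.

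Among the other collagens, type VI was the most abundant. Col6a1, Col6a2 and Col6a3 encode the chains of its usual heterotrimer. Col6a1 stood at 1121, 2709, 3427 and 1884 CPM, Col6a2 at 1065, 2698, 3628 and 2131 CPM, and Col6a3 at 761, 1746, 2572 and 1543 CPM. All 3 were lowest in WT 1 and highest in Qa-2- 1, overlapped between the groups, and had log2 fold changes of -0.47, -0.61 and -0.72 (edgeR, adjusted p = 0.722, 0.637 and 0.546). Without WT 1 these were 0.00, -0.12 and -0.26, and without Qa-2- 1 they were 0.02, -0.18 and -0.30. Together the 3 genes made up 11.5% and 12.9% of collagen counts in WT and 15.9% and 17.1% in Qa-2- uteri, without overlap.

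Col6a4, Col6a5 and Col6a6 encode chains that can stand in for the chain of Col6a3, and lie in a row on chromosome 9. Col6a6 stood at 0.999 and 1.25 CPM in WT and at 3.87 and 4.50 CPM in Qa-2- uteri, the widest separation in this direction. Its log2 fold change was -1.89 ± 0.35 (edgeR, unadjusted p = 0.00249, adjusted p = 0.246), and it stayed between -2.07 and -1.77 when each library was left out. Col6a4 stood at 113 and 339 CPM against 372 and 718 CPM, and Col6a5 at 0.499 and 0.824 CPM against 1.13 and 1.52 CPM. Both Qa-2- libraries were above both WT libraries for all 3 of these genes, an order that 24.5% of all genes had, and Col6a5 passed the filter only through the Qa-2- libraries. The log2 fold change of Col6a4 was -1.27 ± 0.60, and it was -2.27 without WT 2, -0.71 without WT 1 and -0.72 without Qa-2- 2. In Col6a4 alone of the type VI genes above 100 CPM, Qa-2- 2 was above Qa-2- 1.

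Col8a1 and Col8a2 encode the short chains of type VIII collagen, which forms open networks in vessel walls and in the cornea. Col8a1 stood at 11.6 and 10.9 CPM in WT and at 5.14 and 2.98 CPM in Qa-2- uteri, without overlap (log2 fold change 1.46 ± 0.33, edgeR, unadjusted p = 0.00654, adjusted p = 0.252). Col8a2 stood at 5.99, 10.3, 9.04 and 12.1 CPM, with overlap. Their ratio per length was 1.11 and 0.604 in WT and 0.326 and 0.141 in Qa-2- uteri. The log2 fold change of Col8a1 ranged from 1.12 to 1.91 when each library was left out.

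The membrane-spanning collagens include Col23a1 and Col13a1. Col23a1 stood at 14.6 and 4.78 CPM in WT and at 2.23 and 2.01 CPM in Qa-2- uteri, the largest log2 fold change of all members at 2.19 ± 0.58 (edgeR, unadjusted p = 0.0121, adjusted p = 0.271). WT 1 was far above WT 2, and without WT 1 the value was 1.15. Col13a1, for a collagen of cell adhesion sites, stood at 0.749 and 0.425 CPM against 1.61 and 1.38 CPM (log2 fold change -1.34, edgeR, unadjusted p = 0.0343, adjusted p = 0.306). It passed the filter only through the Qa-2- libraries, which favoured a negative sign. With either Qa-2- library left out, Col13a1 did not pass the filter.

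Among the collagens that attach to the surface of fibrils, Col16a1 had the highest level per length, followed by Col14a1 (17.0 CPM per kb) and Col12a1 (9.04). Col16a1 stood at 328, 697, 567 and 363 CPM, Col14a1 at 64.6, 140.2, 180.2 and 91.1 CPM, and Col12a1 at 199.6, 126, 119 and 106 CPM. Col14a1 overlapped between the groups (log2 fold change -0.41 ± 0.48, edgeR, adjusted p = 0.716), and its value turned to 0.02 without WT 1 and to 0.17 without Qa-2- 1. Col16a1 overlapped between the groups, and its log2 fold change of 0.14 turned to -0.50 without WT 2 and to -0.15 without Qa-2- 2. In Col12a1 WT 1 was highest and both WT libraries lay above both Qa-2- libraries (log2 fold change 0.54 ± 0.26, edgeR, adjusted p = 0.397), but the value was 0.15 without WT 1. Col20a1 stood at 1.10 and 1.33 CPM in WT and at 1.92 and 4.07 CPM in Qa-2- uteri (log2 fold change -1.30, edgeR, unadjusted p = 0.0432, adjusted p = 0.317), with Qa-2- 2 highest, and was -0.67 without that library. Col7a1, for the anchoring fibrils under stratified epithelia, stood at 9.66 and 17.8 CPM against 31.9 and 19.2 CPM (log2 fold change -0.90, and -0.55 without WT 1 or -0.49 without Qa-2- 1).

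The 8 collagen genes that did not pass the filter were Col2a1, Col9a1, Col9a2, Col10a1, Col19a1, Col25a1, Col26a1 and Col28a1. Col2a1, Col9a1, Col9a2 and Col10a1 belong to cartilage. Of these 8, 6 had 10 read pairs or fewer in every library. Col10a1 had 10 read pairs in WT 1 and 0 in the other 3 libraries. Col26a1 had 8, 7, 6 and 23 read pairs and Col28a1 had 15, 21, 59 and 30. None of the 8 was tested. Of 8 cartilage and bone markers, summing to between 18.2 and 44.1 CPM, 3 passed the filter and Matn1 was at 0 in all libraries. Most of this sum was Sox9, at 25.4, 13.9, 35.7 and 43.0 CPM. Matn3, Sp7, Ibsp and Bglap had 8 read pairs or fewer in every library.

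Across the 36 genes, no collagen gene passed an adjusted p of 0.05 (edgeR quasi-likelihood test with Benjamini-Hochberg adjustment over 14492 genes), and neither did any other gene (0% of all genes). The smallest adjusted p of a collagen gene was 0.246. With a replicate block, 0 collagen genes and 0.0138% of all genes passed. An unadjusted p under 0.05 was reached by 3 collagen genes that were higher in WT (Col23a1, Col8a1 and Col4a4), where 8.09% of all genes were, and by 4 higher in Qa-2- uteri (Col6a6, Col13a1, Col27a1 and Col20a1), where 7.09% of all genes were. These counts of 3 and 4 of 36 are close to the background, and Col13a1 passed the filter only through the Qa-2- libraries, in which it was higher. DESeq2 called 4 collagen genes at an adjusted p under 0.05, namely Col23a1, Col8a1 and Col4a4 as higher in WT (2.79% of all genes) and Col6a6 as higher in Qa-2- uteri (2.04%). In 5 collagen genes both WT libraries lay above both Qa-2- libraries (25.4% of all genes), and in 9 they lay below (24.5%; Col6a5 and Col13a1, which passed the filter only through the Qa-2- libraries, are among the 9), so that 14 of 36 had no overlap, where 50.0% of all genes had none.

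**Figure D3:**
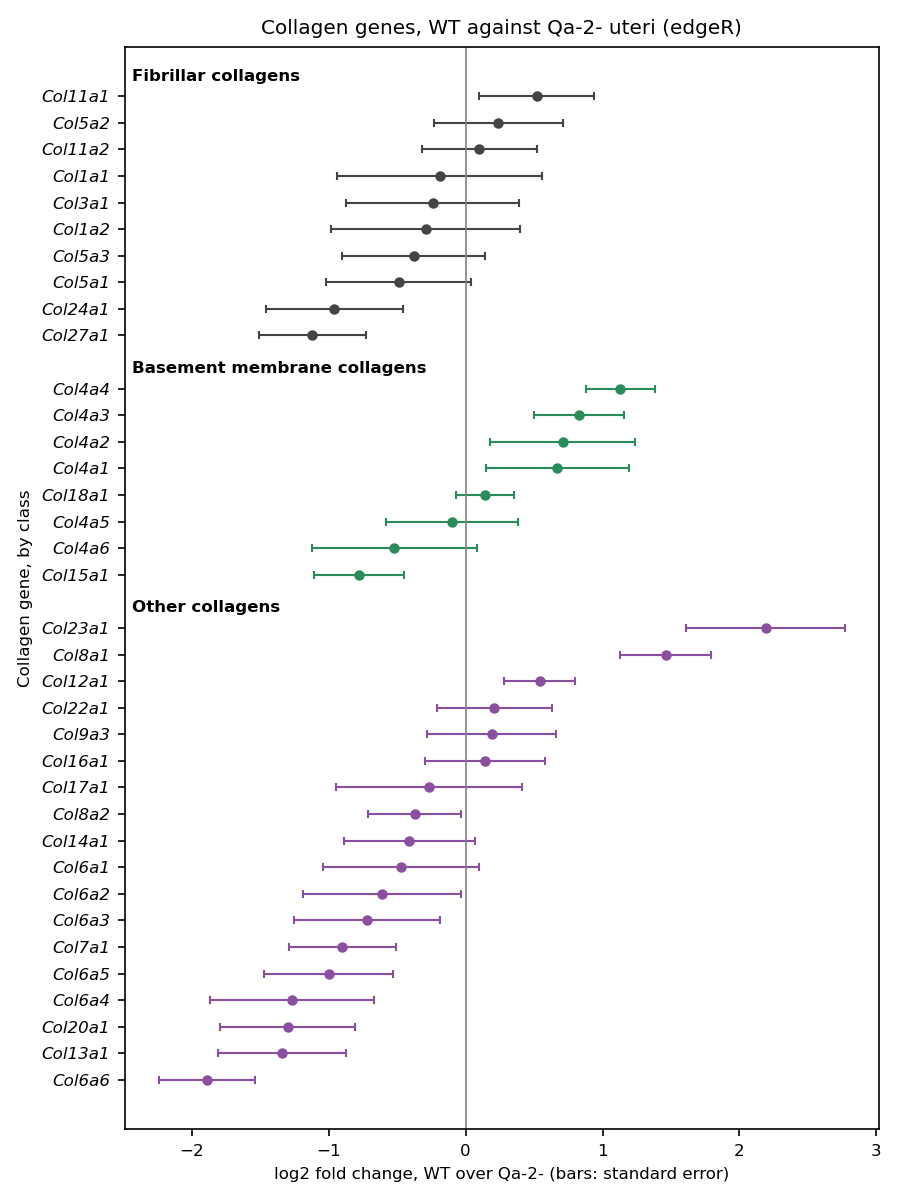
Points show the fitted log2 fold change of each tested collagen gene, WT over Qa-2-, and bars its standard error, by class. Values run from -1.89 for Col6a6 to 2.19 for Col23a1, and the bars of the abundant fibrillar genes Col1a1, Col1a2 and Col3a1 span 0.

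The median log2 fold change over the 36 collagen genes was -0.28, with 14 above 0 and 22 below, against 0.01 for all genes. It was -0.27 for the fibrillar class, 0.41 for the basement membrane class and -0.44 for the others. With all libraries, the fitted values of the 6 type VI genes were all below 0 (median -0.86), but Col6a1 was at 0.00 without WT 1 and at 0.02 without Qa-2- 1. Col6a5 and Col13a1 reached 1 CPM in the Qa-2- libraries alone, so that the filter itself favoured a negative sign for them. Without both, the median was -0.26 over 34 collagen genes, and without Col6a5 it was -0.72 over 5 type VI genes. These medians keep Col6a6, which reached 1 CPM in both Qa-2- libraries but in only 1 WT library. The median of the collagen genes turned to 0.13 without WT 1 and to 0.27 without Qa-2- 1, and was -0.99 without WT 2. In WT 1 against Qa-2- 2 alone, the pair of libraries with the fewest trophoblast marker counts, it was -0.46, and that of the basement membrane class 0.51.

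Because most members varied together, the levels were also set against that of Col1a1 in the same library, a comparison chosen after the values were seen. Of the other 35 members, 8 were then higher in both WT libraries, 11 were higher in both Qa-2- libraries, and 16 overlapped. Of all genes, 9.01% and 1.84% were so ordered. Members that vary with Col1a1 lose their spread within the groups in such a ratio, and genes that do not vary with it gain spread, so that the counts describe the members and cannot be read against these shares. Col4a1 relative to Col1a1 was 0.378 and 0.253 in WT and 0.157 and 0.163 in Qa-2- uteri per length, 1.97-fold higher in WT by the means, and Col4a2 was 2.01-fold higher. The type VI genes ran the other way, at 1.22-fold for Col6a1, 1.38-fold for Col6a2 and 1.45-fold for Col6a3 in favour of Qa-2- uteri. Col1a2 relative to Col1a1 stayed between 0.454 and 0.539, and overlapped. Col15a1 relative to Col1a1 was 0.0471, 0.0303, 0.0431 and 0.0719, with overlap (exact permutation test, two-sided, p = 0.67). Set against Col4a1 instead, Col15a1 was at 0.125 and 0.120 in WT and 0.275 and 0.441 in Qa-2- uteri, which was 2.93-fold higher in Qa-2-. Each ratio without overlap reached the smallest p that the exact permutation test allows with 2 mice a group (two-sided, p = 0.33). The ratio of Col4a1 to Col1a1 ranged from 1.58-fold to 2.36-fold between groups when each library was left out.

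**Figure D4:**
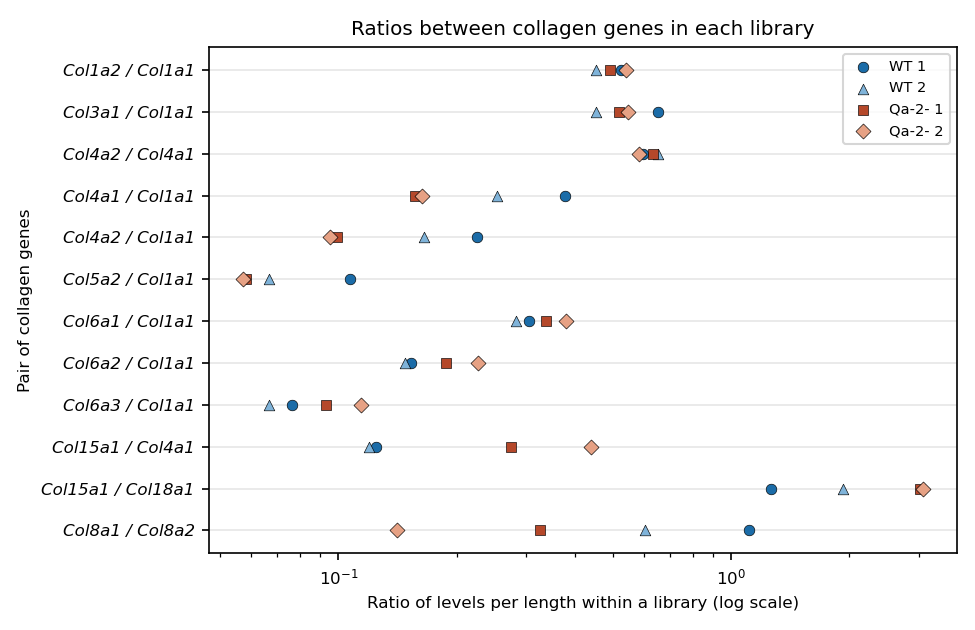
Each row is the ratio of the levels per length of a pair of collagen genes within a library, on a log axis, with 1 point per library. Col1a2 to Col1a1, Col3a1 to Col1a1 and Col4a2 to Col4a1 overlap between the groups, Col4a1 and Col4a2 to Col1a1 are higher in both WT libraries, and Col6a1, Col6a2 and Col6a3 to Col1a1 and Col15a1 to Col4a1 and to Col18a1 are higher in both Qa-2- libraries.

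The genes that make, process, bind and degrade collagen were taken from 6 lists with 77 genes, of which 72 passed the filter. None passed an adjusted p of 0.05 in edgeR. At an unadjusted p under 0.05, 10 were higher in WT and 3 in Qa-2- uteri, beside the 8.09% and 7.09% of all genes. This split did not hold without Qa-2- 2, in a fit that leaves a lone Qa-2- library. Their median log2 fold change was 0.30, with 53 above 0 and 19 below. It ranged from 0.08 (without Qa-2- 2) to 0.63 (without Qa-2- 1) when each library was left out, and its difference from the median of the collagen genes was not tested.

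Of the 20 genes for chain modification and folding, 3 (P4ha1, P4ha3 and Plod3) were higher in WT at an unadjusted p under 0.05. The median of the list was 0.31, and was 0.18 without Qa-2- 2 and 0.40 without WT 1. Serpinh1, the collagen chaperone HSP47, stood at 1332, 1871, 1331 and 995 CPM (log2 fold change 0.46, and 0.19 without WT 2). Sparc, a collagen-binding matrix protein, stood at 6938, 11157, 9241 and 4984 CPM (0.35, and -0.04 without WT 2 or without Qa-2- 2), with the same order of libraries within each group as type I collagen. P3h2 and P4ha3, hydroxylases of collagen prolines, had the largest values (0.91 and 0.89), and Colgalt2, which adds galactose to collagen, and Mia3, which loads it for export, the lowest (-0.31 and -0.24). Without WT 2, P3h2 was at 0.37 and P4ha3 at 0.49, and Colgalt2 was at 0.01 without WT 1 and at -0.76 without WT 2.

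Of the 13 tested genes for propeptide cleavage and crosslinking, 2 were higher in WT and 1 in Qa-2- uteri at an unadjusted p under 0.05. Lox, the lysyl oxidase that starts crosslinking, stood at 987 and 480 CPM in WT and at 296 and 177 CPM in Qa-2- uteri. Both WT libraries were higher, and the log2 fold change was 1.63 ± 0.46 (edgeR, unadjusted p = 0.0152, adjusted p = 0.275). It ranged from 1.0 to 2.06 when each library was left out, lowest without WT 1. Loxl3, a related oxidase, had 0.92 (0.57 without WT 1), the crosslinking transglutaminase Tgm2 -0.56 (-0.17 without Qa-2- 2), and Adamts14, a procollagen N-propeptidase, -1.40, from 8.64 and 24.7 CPM in WT against 52.6 and 35.0 CPM in Qa-2- uteri. Without WT 2 the value of Adamts14 was -2.34, and without WT 1 it was -0.85.

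Of the 11 tested fibril binding proteins, 2 (Thbs2 and Lum) were higher in WT at an unadjusted p under 0.05. The median of the list was 0.73, and was 0.29 without Qa-2- 2 and 1.28 without Qa-2- 1. Thbs2, the matricellular thrombospondin 2, stood at 109.7 and 64.2 CPM against 35.9 and 15.5 CPM (log2 fold change 1.76). Lum, the fibril-spacing proteoglycan lumican, stood at 794 and 495 CPM against 360.3 and 221 CPM (1.15, and 0.74 without WT 1). Fn1, fibronectin, stood at 4581 and 9498 CPM against 3752 and 1492 CPM (1.42, edgeR, unadjusted p = 0.0864). When each library was left out, Thbs2 and Fn1 ranged from 1.27 (without Qa-2- 2) to 2.49 (without Qa-2- 1) and from 0.80 (without WT 2) to 2.24 (without Qa-2- 1). Fmod and Tnxb, which bind and space fibrils, had -0.71 and -0.23. Fmod was at -0.33 without Qa-2- 1, and Tnxb was at 0.18 without WT 1 and 0.10 without Qa-2- 1. Of the 9 tested collagen receptors, Lair1, an inhibitory receptor of leukocytes, was higher in WT (0.97, unadjusted p = 0.0269, edgeR), Itga1, an integrin chain for type IV collagen, had 0.82 (0.35 without WT 2), and Itga10 and Ddr1 had -0.02 and -0.07. The sign of Itga10 turned to 0.30 without WT 1 and to 0.51 without Qa-2- 1, and that of Ddr1 to 0.12 without WT 2.

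Of 6 collagenases and gelatinases, 4 passed the filter and 2 were higher in WT at an unadjusted p under 0.05. Ctsk, the collagen-degrading cathepsin K, stood at 891 CPM in WT 1 and at 89.9, 69.8 and 73.6 CPM in the other libraries, so that WT 1 stood alone. Its log2 fold change of 2.77 fell to 0.30 without WT 1. Mmp14, a membrane-bound collagenase, stood at 1009 and 547 CPM against 437 and 386 CPM (log2 fold change 0.92, and 0.38 without WT 1), also highest in WT 1, the library with the lowest collagen share. Mmp9 and Mmp2, the gelatinases, had 0.78 and 0.33, with Mmp9 at 0.26 without WT 2 and Mmp2 at 0.06 without Qa-2- 2. Of the 15 other basement membrane proteins, 2 (Lama3 and Lamb3) were higher in Qa-2- uteri at an unadjusted p under 0.05 (median -0.06). Lama3, a laminin chain of epithelial basement membranes, stood at 40.0 and 36.3 CPM in WT and at 82.4 and 76.8 CPM in Qa-2- uteri (log2 fold change -1.06 ± 0.15, edgeR, adjusted p = 0.246). Of 6 epithelium markers, 5 were higher in both Qa-2- libraries, an order that 24.5% of all genes had. Lamc3 had -0.94, which was -2.67 without WT 2 and -0.19 without WT 1, and Hspg2, perlecan, and Lamb2 had 0.51 and 0.46, with Hspg2 at -0.22 and Lamb2 at 0.12 without WT 2.

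**Figure D5:**
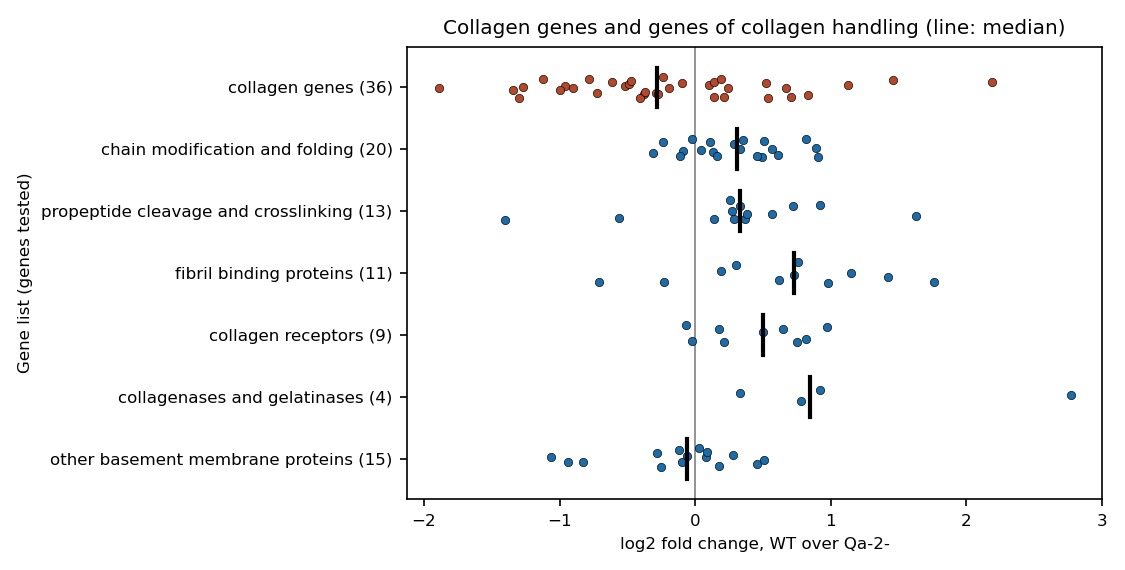
Points show fitted log2 fold changes, WT over Qa-2-, of the tested genes of each list, and black lines the median. The medians lie at -0.28 for the collagen genes, 0.85 for the collagenases and gelatinases and -0.06 for the other basement membrane proteins, and without WT 1 they lie at 0.13, 0.39 and 0.13.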

How the data were processed

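Whole-uterus RNA of 2 WT and 2 Qa-2- mice was sequenced, with 1 library per mouse. The deposited values are counts of read pairs per gene and library, made by the authors without normalization. Per the file headers, they come from featureCounts 2.0.0 with reverse-strand counting and a mapping quality of at least 3, on an annotation of GRCm38. The submitters' processing notes name STAR 2.7.3a and GRCm38.p6. Symbols were taken from GENCODE M21, which held 55240 of 55421 gene identifiers, with all 44 collagen genes at the same start and end.

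The filter kept 14492 genes that reached 1 CPM by library total in 2 or more libraries, and they were normalized by TMM (factors 0.957 to 1.05) and compared with the quasi-likelihood test of edgeR 4.0.16 in R 4.3.3, with p-values adjusted after Benjamini and Hochberg for all of these genes. The method was tested on simulated counts. CPM per kb divides by exon length. The 2 libraries of a group differed by more than sampling noise. Read pairs with several positions or genes were not counted, which lowers the values of genes with near-identical copies. Marker lists were those of uterus, smooth muscle, fibroblast, endothelium, epithelium, leukocyte, cartilage and bone, Schwann cell, mesothelium, yolk sac and trophoblast genes.

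Members, lists and rules were chosen with earlier results of these data known. Named by rule were the 4 members of each class highest per length, the 5 largest and 5 smallest log2 fold changes, members at an unadjusted p under 0.05, the type IV pairs, members below the filter and, in each pathway list, the 2 largest and 2 smallest log2 fold changes with Serpinh1, Lox and Sparc. Other names and all ratios were chosen after their values were seen. Alternatives were DESeq2 1.42.0, upper-quartile scaling, library totals alone, collagen genes left out of library sizes, no filter, at least 10 counts in every library, a replicate block, a robust fit, an adjusted p under 0.1, haemoglobin and mitochondrial genes left out, shares per length, type IV alone as its class, and each library left out in turn. The crossed pairing treated WT 1 with Qa-2- 2, and WT 2 with Qa-2- 1, as pairs. It was added after the data were seen. So were WT 1 against Qa-2- 2 alone and the medians without members that reached the filter in 1 group alone.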

Additional observations from a re-analysis of the deposited data

How the results depend on the processing

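With 2 mice a group, no adjusted call of a collagen gene was made by edgeR under any alternative. DESeq2 made 4, and 5 among the 72 tested genes of the pathway lists. Of all genes, DESeq2 called 2.79% as higher in WT and 2.04% as higher in Qa-2- uteri. The 7 collagen genes at an unadjusted p under 0.05 became 11 with DESeq2, 13 without a filter and 16 with the crossed pairing. The share of all genes went from 15.2% to 16.5%, 10.8% and 25.0%. The 13 pathway genes became 19 with DESeq2, 23 without a filter and 26 with the crossed pairing. That pairing joins libraries already seen to have like collagen shares, which takes out spread within the groups. Its counts can therefore not be read as a result about the collagen or pathway genes. Leaving each library out in turn left a lone library that was assumed to vary like those of the other group. Counts of genes at a p-value were therefore not read from these fits. Collagen genes without overlap, 14 with all libraries, then ranged from 19 to 27. A lone library overlaps less often by construction, and 71.5% to 77.4% of all genes had no overlap then. The median log2 fold change ranged from -0.99 to 0.27 over all collagen genes, from -0.99 to 0.34 for the fibrillar class, from 0.12 to 0.78 for the basement membrane class and from -1.24 to -0.03 for the others, and the share ratio from 0.526 to 1.14. Under all scalings, filters and the robust fit, the medians of the 4 groups kept their sign. The basement membrane ratio moved to 1.84 for type IV alone.

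The signs of Col1a1 (-1.04 to 0.42), Col1a2 (-1.0 to 0.23), Col3a1 (-0.74 to 0.31), Col4a5 (-0.86 to 0.37), Col4a6 (-1.74 to 0.11), Col5a2 (-0.20 to 0.86), Col6a1 (-1.24 to 0.02), Col16a1 (-0.50 to 0.56), Col18a1 (-0.01 to 0.31), Col5a1 (-1.22 to 0.03), Col5a3 (-0.97 to 0.38), Col11a2 (-0.24 to 0.40), Col14a1 (-1.07 to 0.17), Col17a1 (-0.55 to 0.32) and Col9a3 (-0.17 to 0.21) turned with the library left out, and Col16a1 was -0.15 in WT 1 against Qa-2- 2 alone. The replicate numbers 1 and 2 give no pairing of mice, and same-numbered libraries deviated in opposite directions (correlation -0.37 over 14492 genes). With the replicate block, 0 collagen genes passed an adjusted p under 0.05. At an unadjusted p under 0.05 there were 6 of 36, beside 9.18% of all genes, and the median was -0.34. The crossed pairing also gave 0 adjusted calls. At this depth 1 CPM, before scaling by TMM, corresponds to between 33.3 and 41 read pairs, which limits the members below it.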

Other observations

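The 4 mesothelium markers, for the lining on the outside of the uterus, summed to 64.1 and 52.9 CPM in WT and to 20.9 and 11.5 CPM in Qa-2- uteri. All 4 were higher in both WT libraries, an order that 25.4% of all genes had. The 6 fibroblast markers summed to 1651, 1895, 1571 and 1081 CPM, of which Vim gave 1135, 1287, 987 and 582 CPM. They did not run alike. Of the 6, 4 were higher in both WT libraries (25.4% of all genes), and 1, Pdgfra, in both Qa-2- libraries (24.5%). The 6 leukocyte markers summed to 248, 374, 305 and 275 CPM, and the 5 Schwann cell markers to 33.2, 18.9, 39.1 and 45.1 CPM. Afp, made by the yolk sac and fetal liver, stood at 3.94, 33.7, 374 and 19.7 CPM, highest in Qa-2- 1, the library with the highest collagen share. The 6 yolk sac markers summed to 321, 345, 603 and 164 CPM, of which Thbd, also made by endothelium, gave 288, 279, 171 and 111 CPM. Whether fetal tissue added collagen RNA to any library was not tested.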
